A study of Mus musculus with 2 samples.

Results

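Tubulin isotypes are the products of separate genes for the same protein subunit, and 10 of them, 4 alpha and 6 beta, were followed here in the neural tube of the mouse embryo. The genes were chosen by name (Tuba1a, Tuba1b, Tuba1c, Tuba4a, Tubb2a, Tubb2b, Tubb3, Tubb4a, Tubb4b and Tubb5) and found by Ensembl identifier, and all 10 of 10 were present among the 43346 mouse genes measured. Total RNA was sequenced from neural tubes of healthy B6NCrl mouse embryos, of both sexes, at embryonic day 12.5. The study held 1 group with 2 biological replicates, replicate 1 pooled from 120 embryos and replicate 2 from 88, and both pools carry the same donor identifier. With no second tissue, stage or treatment, genes are set against each other in the same tissue and 1 pool against the other, and no test was run. Nothing in the labels describes separate litters, animals or tissue collections, so what the spread between the pools covers is not known.

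Microtubules are hollow polymers built from dimers of an alpha and a beta tubulin, and each family is encoded by several genes whose proteins are alike along most of their length. Isotypes differ most in the acidic tail at the carboxyl end, which projects from the microtubule and carries many of its modifications. In the developing nervous system Tuba1a, Tubb2b and Tubb3 are known for their roles in the migration of neurons and the growth of axons, and Tubb5 for its expression in dividing progenitors as well as neurons.

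The ends of the beta tubulin coding sequences are shown because they encode the tails. Each is the last 60 bases before and including the stop codon, 5′ to 3′, from the GENCODE M21 transcript on GRCm38, and capitals mark bases that do not match Tubb5 in an alignment of the whole coding sequences.
Tubb5: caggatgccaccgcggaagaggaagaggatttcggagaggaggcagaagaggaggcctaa
Tubb3: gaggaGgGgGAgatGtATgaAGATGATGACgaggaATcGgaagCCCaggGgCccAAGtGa
Tubb2a: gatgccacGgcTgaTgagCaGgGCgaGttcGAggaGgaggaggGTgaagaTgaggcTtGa
Tubb2b: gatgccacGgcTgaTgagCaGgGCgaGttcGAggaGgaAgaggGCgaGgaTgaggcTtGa
Tubb4a: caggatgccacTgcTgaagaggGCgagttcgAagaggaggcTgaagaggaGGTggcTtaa
Tubb4b: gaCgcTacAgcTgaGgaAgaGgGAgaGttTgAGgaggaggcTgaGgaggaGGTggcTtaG

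Tubb3, the beta tubulin used as a marker of neurons, differed from Tubb5 at 29 of the 60 bases, the most of the 5 genes compared with it. Tubb4a differed at 10, Tubb2a at 16, Tubb2b at 18 and Tubb4b at 20. These counts include bases that have no partner in the alignment, not only substitutions. With its stop codon the Tubb3 coding sequence is 1353 bases long, against 1335 for Tubb5 and for Tubb4a. Upstream the 5 genes lay between 14.9% and 17.2% of bases different from Tubb5. For Tubb4a the last 60 bases were hardly more different (16.7%) than those before them (15.8%). A differing base need not change the protein, and protein sequences were not compared, so these are not counts of differences between the protein tails. Coding identity ran from 84.7% to 98.3% among the 6 pairs of alpha genes, from 81.5% to 96.5% among the 15 pairs of beta genes and from 55.8% to 57.7% between the families. The closest alpha pair was Tuba1a with Tuba1b (98.3%, 23 differing positions), and the closest beta pair was Tubb2a with Tubb2b (96.5%, 47 differing positions).

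In the genome (GRCm38, GENCODE M21) all 10 main transcripts had 4 exons. Tuba1b (ENSMUSG00000023004, 98931425 to 98934565, minus strand), Tuba1a (ENSMUSG00000072235, 98949837 to 98953703, minus strand) and Tuba1c (ENSMUSG00000043091, 99029891 to 99038110, plus strand) form a cluster on chromosome 15. Tubb2a (ENSMUSG00000058672, 34074274 to 34078007, minus strand) and Tubb2b (ENSMUSG00000045136, 34126748 to 34130466, minus strand) are neighbours on chromosome 13. Tubb5 (ENSMUSG00000001525, 35833921 to 35838306, minus strand) and Tubb4a (ENSMUSG00000062591, 57080066 to 57087782, minus strand) lie apart on chromosome 17. Tubb3 (ENSMUSG00000062380) is on chromosome 8 at 123411424 to 123422015, plus strand. Tubb4b (ENSMUSG00000036752) is on chromosome 2 at 25222160 to 25224702, minus strand. Tuba4a (ENSMUSG00000026202) is on chromosome 1 at 75214228 to 75219865, minus strand.

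Depth was 32612423 expected counts for replicate 1 and 34555002 for replicate 2, with 31610805 and 33530172 of them on mouse genes. A level of 1 TPM was reached in both libraries by 15181 genes (TPM is transcript abundance corrected for effective length and scaled to a fixed total in each library). All 11 neuron markers and all 9 neural progenitor markers listed reached 1 TPM in both, as the tissue label has it. So did all 8 muscle, 8 erythroid, 7 fibroblast or meningeal, 6 endothelial and 10 matched sensory ganglion markers. By the muscle and erythroid lists the libraries also held RNA of cells that are not neural. Which tissue the RNA of the other lists came from was not tested. In bulk tissue fewer cells of a type and less RNA per cell cannot be told apart, and a level here is an average over all cells collected.

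Tuba1a, the main alpha tubulin of young neurons, was the highest protein-coding gene of the tissue. It stood at 9841 TPM in replicate 1 and 9800 TPM in replicate 2 (9820 ± 28.6, SD, n = 2), from 301695 and 311696 expected counts. It ranked 1 among protein-coding genes and 3 among all genes. Tuba1b, an alpha tubulin expressed in most tissues, stood at 1063 and 1045 TPM (1054 ± 12.7, n = 2) and ranked 60 among protein-coding genes. The level of Tuba1a was 9.26 times that of Tuba1b in replicate 1 and 9.38 times in replicate 2.

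Tuba1c, the other widely expressed member of the chromosome 15 cluster, was far lower, at 48.7 and 47.8 TPM (48.3 ± 0.651, n = 2). Tuba4a, known from adult brain, muscle and platelets, was the lowest of the 10, at 7.68 TPM in replicate 1 and 9.80 TPM in replicate 2 (8.74 ± 1.499, n = 2). Its 279 and 320.5 expected counts were the fewest of the set. The 4 alpha genes thus spanned from rank 1 to rank 9643 of the protein-coding genes, and the ranges of no 2 of them overlapped.

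Tubb5, the broadly expressed beta tubulin of dividing cells and neurons, was the highest beta gene. Its levels were 1272 TPM in replicate 1 and 1269 TPM in replicate 2 (1270 ± 2.06, n = 2), rank 41 among protein-coding genes. Tubb4b, a beta tubulin of many tissues that is also prominent in ciliated cells, stood at 360 and 351 TPM (356 ± 6.26, n = 2). Of 6 motile cilia markers 4 reached 1 TPM in both libraries, and the highest, Foxj1, a factor that switches on ciliary genes, was at 5.86 and 6.05 TPM.

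The beta tubulins best known from neurons followed Tubb5. Tubb3 stood at 1004 TPM in replicate 1 and 1030 TPM in replicate 2 (1017 ± 18.9, n = 2). Tubb2a, a major beta tubulin of brain, was almost equal in the pools, at 784.6 and 784.9 TPM (785 ± 0.233, n = 2). Tubb2b, its neighbour, known for its part in cortical neuron migration, was higher in replicate 1, at 485 TPM, than in replicate 2, at 416 TPM (450 ± 48.8, n = 2). Tubb4a, a beta tubulin of later neurons and of oligodendrocytes, was lower in replicate 1, at 188 TPM, than in replicate 2, at 224 TPM (206 ± 25.3, n = 2). Among 6 markers of mature oligodendrocytes, 2 reached 1 TPM in both libraries, and Opalin, a protein of the mature cells, had no counts in either.

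**Figure D1:**
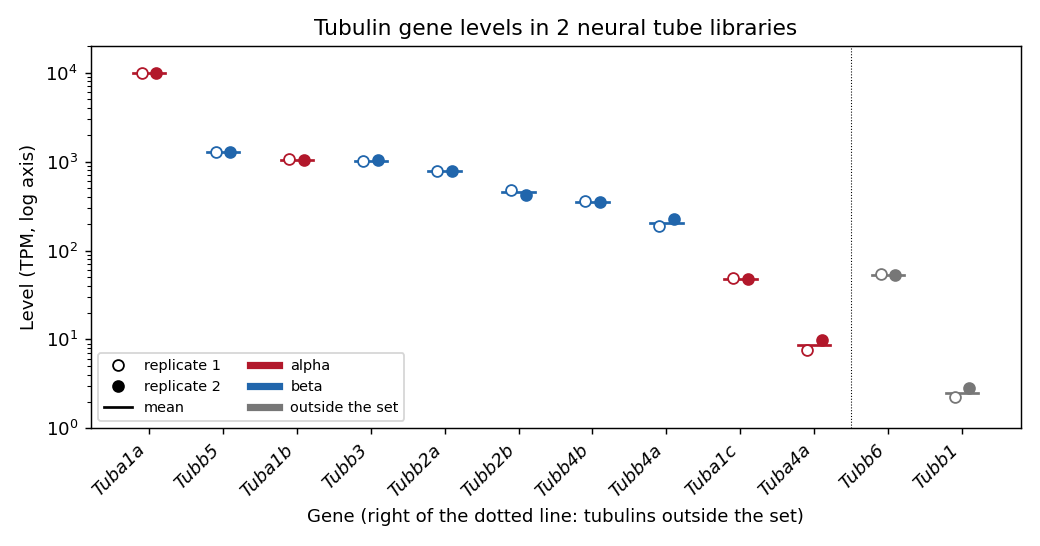
Levels of the 10 tubulin genes and, right of the dotted line, of Tubb6 and Tubb1, in TPM on a log axis, with open circles for replicate 1, filled circles for replicate 2 and lines for means. Tuba1a at 9820 TPM stands apart, 7 genes lie between 206 and 1270 TPM, and Tuba1c and Tuba4a are lower.

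Ordered by mean TPM the genes ran Tuba1a, Tubb5, Tuba1b, Tubb3, Tubb2a, Tubb2b, Tubb4b, Tubb4a, Tuba1c and Tuba4a. At each step the lower library of the higher gene was above the higher library of the lower gene. The largest step was the first, where Tuba1a was 7.73 times Tubb5, and the smallest was Tuba1b over Tubb3, at 1.04 times. That last difference was 37.4 TPM, beside an SD of 18.9 TPM for Tubb3, and by counts scaled to depth alone (CPM), with no length correction, Tubb3 (1117 and 1122) was above Tuba1b (1084 and 1037). Tubb2b over Tubb4b was likewise narrow, since replicate 2 had Tubb2b at 416 TPM and replicate 1 had Tubb4b at 360 TPM. Deposited posterior means, estimated from the same reads, gave the same order as TPM. So did FPKM, but within a library it orders genes as TPM does by construction.

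Within the alpha family nearly all RNA came from Tuba1a. Its share of the summed alpha TPM was 89.78% in replicate 1 and 89.88% in replicate 2 (89.8 ± 0.0704%). Tuba1b held 9.70% and 9.59%, Tuba1c 0.445% and 0.438%, and Tuba4a 0.0701% and 0.0899%. By expected counts the Tuba1a share was 89.2% (exact binomial 95% interval 89.1 to 89.3%) in replicate 1 and 89.4% (89.3 to 89.5%) in replicate 2. These intervals cover counting error only. They leave out how reads that fit more than 1 gene were divided, and no molecular identifiers are given for the reads.

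Within the beta family the RNA was spread over 6 genes, and none reached the share that Tuba1a had among the alphas. Tubb5 held 31.1% in each library (31.1 ± 0.0469%). Tubb3 held 24.5% and 25.3%, and Tubb2a 19.2% and 19.3%. Tubb2b held 11.8% in replicate 1 and 10.2% in replicate 2, and Tubb4a held 4.60% and 5.50%. Tubb4b held 8.79% and 8.62%. Replicate 2 minus replicate 1, these are differences of -1.64 percentage points for Tubb2b, 0.897 for Tubb4a and 0.765 for Tubb3. The differences for Tubb4b (-0.178), Tubb2a (0.0931) and Tubb5 (0.0663) were smaller.

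The neighbours Tubb2a and Tubb2b together held 31.0% of beta TPM in replicate 1 and 29.5% in replicate 2, about the share of Tubb5. Tubb3, Tubb2a, Tubb2b and Tubb4a, the genes best known from the nervous system, together held 60.1% and 60.2%, and the broadly expressed Tubb5 and Tubb4b 39.9% and 39.8%. By counts these shares were 53.04% and 53.23% against 46.96% and 46.77%. Length correction matters most for Tubb5, whose deposited mean transcript length (2618 bases in replicate 1) is the longest of the set and which held 40.2% of beta counts in both libraries against 31.1% of beta TPM. By counts Tubb3 held 22.3% (95% interval 22.1 to 22.5%) and 23.0% (22.8 to 23.2%), and Tubb2a 14.6% and 14.7%.

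**Figure D2:**
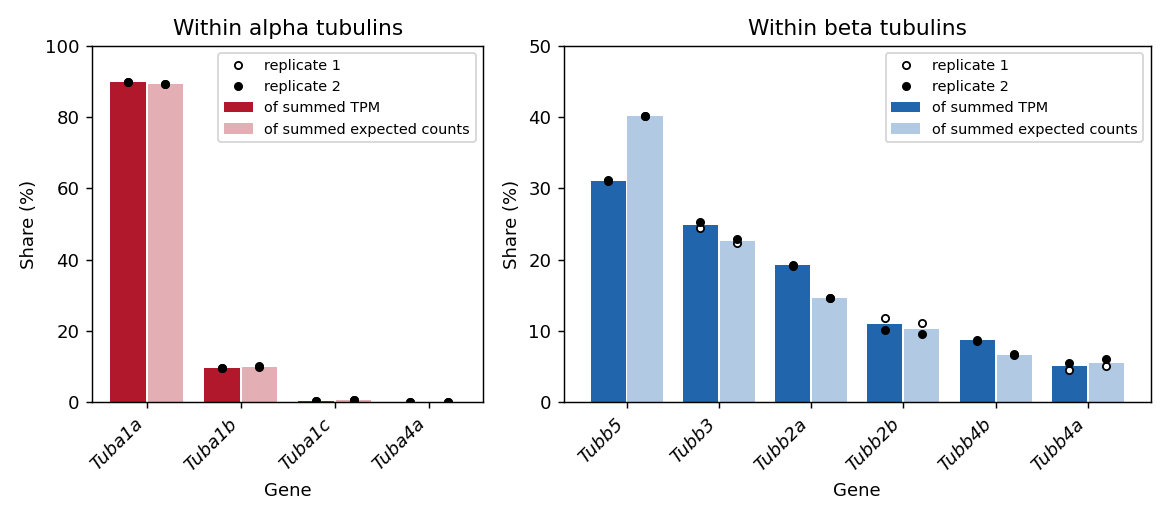
Share of each gene in the summed alpha (left) and beta (right) tubulin signal in percent, by TPM (dark bars) and by expected counts (light bars), with bars at the mean and circles for the libraries; the panels have different scales. Tuba1a takes 89.8% of alpha TPM, and Tubb5 takes 31.1% of beta TPM but 40.2% of beta counts.

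Alpha and beta tubulin proteins pair in equal numbers, but their RNA was not equal in amount. The 4 alpha genes summed to 10960 TPM in replicate 1 and 10903 TPM in replicate 2, and the 6 beta genes to 4093 and 4075 TPM. Alpha exceeded beta 2.68-fold in both libraries (2.677 ± 0.00153, n = 2), and 2.13-fold by expected counts. Without Tuba1a the order turned, with 1120 and 1103 TPM of alpha, or 0.274 and 0.271 of the beta sum. Together the 10 genes made up 1.51% and 1.498% of all TPM, and 1.57% and 1.53% of counts on mouse genes. How much protein these RNAs give was not measured.

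How firmly reads can be given to each gene differs among the members. Each main transcript was cut into overlapping windows of 100 bases, and a window counted as shared if a gene at another locus holds it exactly, on either strand; genes that overlap the member itself are left out here and given further on. Tubb3, Tubb4a, Tubb5 and Tuba4a shared no window with a gene at another locus. Of windows inside the coding sequence, Tuba1b shared 85.8%, Tuba1c 80.4%, Tuba1a 67.8%, Tubb2b 46.7%, Tubb2a 45.04% and Tubb4b 35.3%.

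Outside the coding sequence only Tuba1b shared windows, 57 of 387 (14.7%). These windows are those of the M21 transcripts, and 4 of the 10 (Tuba1a, Tuba1c, Tubb2a and Tubb2b) have another length in the files. Some sharing genes of M21 had no deposited value matched by identifier, namely AC157548.1, Gm3226, Gm7172, Tubb2a-ps2 and, for Tuba1c, Gm49450. Of the Tuba1a windows AC157548.1 held 547 and Gm3226 held 431. Shared windows thus need not be those over which the deposited estimate divided reads. Tuba1b shared 799 windows with Tuba1c and 448 with Tuba1a. Tubb2a and Tubb2b shared 543 windows with each other. Tubb4b shared 411 of its 437 shared windows with Tubb4b-ps1, a processed copy that was listed at 0.37 and 0.31 TPM.

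**Figure D3:**
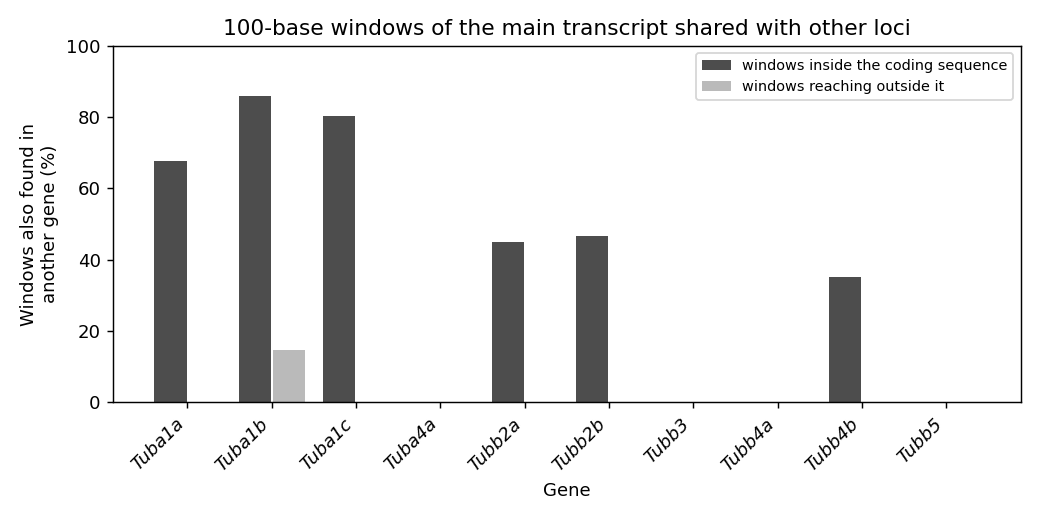
Percent of 100-base windows of each main transcript that occur exactly in a gene at another locus, for windows inside the coding sequence (dark bars) and windows that reach outside it (light bars). Tuba1b has the highest coding share at 85.8%, and Tuba4a, Tubb3, Tubb4a and Tubb5 have none.

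Processed copies of alpha tubulin were also assigned RNA. Gm14150 stood at 13.6 and 13.8 TPM, Gm6682 at 10.9 and 6.65, Gm17383 at 6.59 and 6.95, Gm3756 at 3.10 and 1.30, and Gm5620 at 1.14 and 1.65. All 5 share windows with Tuba1a, Tuba1b and Tuba1c, so their levels are uncertain. Gm6682 and Gm3756 rest on 43 and 27 counts and on 12 and 5 counts. Tuba1c, at 48.3 TPM, shares 594 windows with Tuba1a, at 9820 TPM, and how the deposited estimate divided such reads was not tested.

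For 9 of the 10 genes, 1 transcript carried nearly all of the TPM. Tuba1a-201 held 99.14% and 99.03% of its gene, Tubb4b-201 99.3% and 98.8%, Tubb5-201 98.2% and 97.9%, and Tuba1b-201 98.1% and 97.3%. Tuba1c, Tubb2a, Tubb2b, Tubb3 and Tubb4a had 1 transcript each in the tables. Tuba4a was split over 8 listed transcripts, of which 3 reached 1 TPM in both libraries. Tuba4a-201 held 34.9% and 40.2% of its TPM, Tuba4a-206 22.10% and 35.96%, and Tuba4a-202 28.8% in replicate 1 and 10.7% in replicate 2.

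Genes that overlap a member are a further limit where counting may not have used strand, on which the sources used here say nothing. Tuba4a overlaps Stk16, a kinase gene on the opposite strand, over 1379 bases, and Stk16 stood at 112 and 118 TPM against the 7.68 and 9.80 TPM of Tuba4a. Of the 2741 windows of the Tuba4a transcript used, 1280 lie in Stk16 transcripts, and 0 of these are inside the Tuba4a coding sequence. That transcript, Tuba4a-202, held only 28.8% of Tuba4a TPM in replicate 1 and 10.7% in replicate 2. The other Tuba4a transcripts were not cut into windows. The genes annotated over Tubb3 (Gm20388) and at 121 bases of Tubb4b (Fam166a) were at 0 TPM in both libraries. Gm49450 is annotated across Tuba1a and Tuba1b, and 1 transcript that M21 gives to it is counted within the Tuba1a value in the files, at 5.12 and 8.17 TPM. Genes overlapping the locus held 433 of the 1257 coding windows of Tuba1a and 530 of those of Tuba1b. Gm41396, antisense to 241 bases of Tuba1b, was not analysed here. How far reads of Stk16 enter the Tuba4a value was not tested.

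Between the pools most of the tubulin genes differed little. The coefficient of variation was under 2% in 7 of 10 genes, and the largest was 17.2%, in Tuba4a. None of the 10 was over 2-fold apart (0 of 10), as for most genes, since 1.43% of the 15735 genes whose mean was 1 TPM or more were, and 0% of the 1744 with at least 100 TPM. As log2 of TPM + 1, with replicate 2 divided by replicate 1, the members ran from -0.22 (Tubb2b) to 0.32 (Tuba4a), with 4 higher and 6 lower and a median of -0.0046. The median over all genes of at least 1 TPM was 0.03 with an SD of 0.33, and over those of at least 100 TPM 0.0062 with an SD of 0.11. In size, 3 of the 10 ratios exceeded that SD of 0.11, those of Tubb2b (-0.22), Tubb4a (0.25) and Tuba4a (0.32, at a mean of only 8.74 TPM).

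Of the 10 genes, 3 had deposited TPM intervals that did not overlap between the libraries, Tubb2b lower in replicate 2 and Tubb3 and Tubb4a higher. The background share is 14.3% of genes of at least 1 TPM (10.1% higher, 4.19% lower), and 29.1% of those of at least 100 TPM (17.9% higher, 11.2% lower), to which 8 members belong. With 3 of those 8 apart, the tubulins are close to that background. The deposited intervals, whose level is not stated, describe the estimate within a library and not the spread between pools. For 8 of the 10 genes they do not hold the deposited TPM itself, and they hold the deposited posterior mean instead (for Tuba1a in replicate 1 the interval was 9523 to 9597 TPM and the posterior mean 9560).

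Tubb2b had 17578 counts in replicate 1 and 15647 in replicate 2, a log2 ratio of CPM of -0.25 (exact 95% interval -0.28 to -0.22). Tubb4a had 7974 and 9847, a ratio of 0.22 (0.18 to 0.26). Both intervals exclude 0, as they did for 7 of the 10 genes, against 33.4% of genes of at least 1 TPM and 54.3% of those of at least 100 TPM. All 7 are among the 8 members of at least 100 TPM, and of the 7 only Tubb4a was higher in replicate 2. Such an interval covers counting error only, not the spread between pools. For Tuba4a the ratio of counts was 0.11 (-0.12 to 0.35), which includes 0. The deposited mean length of Tuba4a was 1927 bases in replicate 1 and 1684 in replicate 2. For Tubb3 the ratio of counts was 0.0068 (-0.014 to 0.028).

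Markers of cell types also differed between the pools. Of 11 neuron markers 10 were higher in replicate 2, with intervals apart in 7 higher and 1 lower (Elavl3), and their sum was 2933 TPM in replicate 1 and 3323 TPM in replicate 2. Their median log2 ratio was 0.16, against 0.25 for Tubb4a, 0.04 for Tubb3, -0.0059 for Tuba1a and -0.22 for Tubb2b. All 10 sensory ganglion markers were higher in replicate 2 (6 with intervals apart; sum 440 and 611 TPM), and all 8 muscle markers were lower with intervals apart (sum 361 and 264 TPM). Of all genes of at least 1 TPM, 10.1% had intervals apart and higher in replicate 2 and 4.19% apart and lower. Of those of at least 100 TPM, these shares were 17.9% and 11.2%. None of these marker lists had a member at 0 in both libraries.

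The 9 progenitor markers summed to 3121 and 3205 TPM, with 6 lower in replicate 2 and a median log2 ratio of -0.02. Intervals were apart in 3 of them, against 14.3% of all genes of at least 1 TPM and 29.1% of those of at least 100 TPM. The filament gene Vim (937 and 988 TPM) and the fatty acid carrier gene Fabp7 (1469 and 1537 TPM) were higher in replicate 2. The filament gene Nes (136 and 114 TPM) was lower. The part of any of these cell types in the Tubb2b, Tubb3 and Tubb4a differences was not tested.

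**Figure D4:**
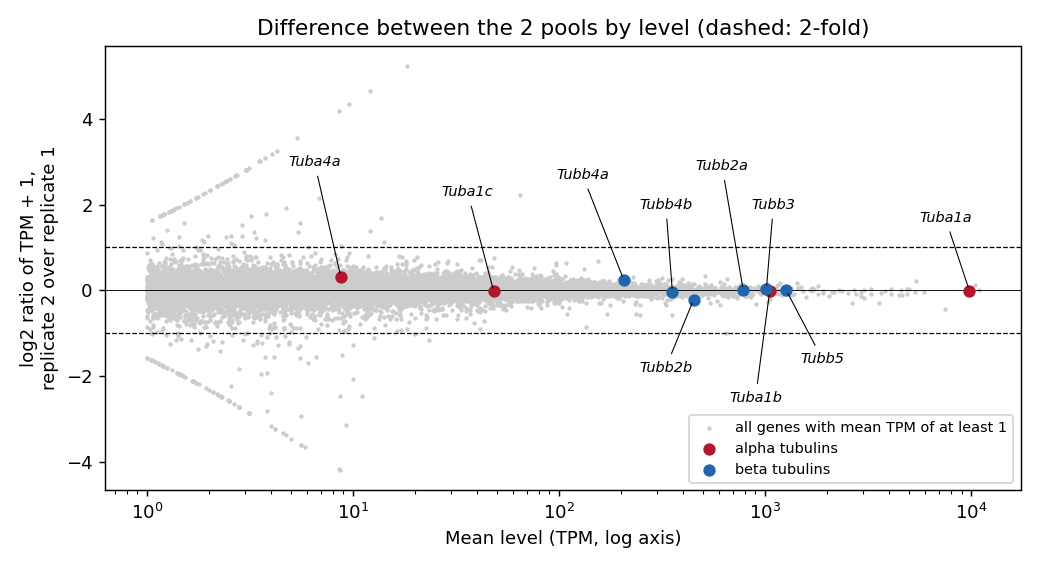
Log2 ratio of TPM + 1, replicate 2 over replicate 1, against mean TPM on a log axis, for the 15735 genes averaging 1 TPM or more (grey), the alpha tubulins (red) and the beta tubulins (blue); dashed lines mark a 2-fold difference. All 10 tubulins lie between -0.22 and 0.32, inside the dashed lines.

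Of the 6 remaining alpha and beta tubulin genes, 2 reached 1 TPM in both libraries. Tubb6, a beta tubulin of many tissues outside neurons, stood at 54.6 and 52.7 TPM, above Tuba1c and below Tubb4a. Tubb1, the beta tubulin of platelets and their precursors, stood at 2.23 and 2.82 TPM from 58 and 76 counts. Of 7 megakaryocyte and platelet markers 5 reached 1 TPM in both libraries, and the 7 summed to 69.4 and 77.0 TPM. Most of that sum was 1 gene, the platelet chemokine Pf4, at 41.8 and 45.5 TPM. The lowest of the list were Gp1ba (0.21 and 0.41 TPM) and Gp6 (0.29 and 0.64 TPM), and Gp9 (2.26 and 1.43 TPM) was lower in replicate 2. The part of those cells in the Tubb1 and Tuba4a levels was not tested.

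The other 4 genes were near the floor. Tuba8 had 9 and 12 counts (0.21 and 0.27 TPM). Tuba3a, known from testis, had 0 counts in replicate 1 and 10 in replicate 2. Tuba3b and Tubal3 had 0 counts in both libraries, and with a floor of 3 counts a 0 allows up to 0.0949 CPM in replicate 1 and 0.0895 in replicate 2.

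New tubulin chains pass from prefoldin to the CCT chaperonin, a ring of 8 different subunits, and then to a set of cofactors that join alpha to beta. The median CCT subunit stood at 400 ± 6.33 TPM, and all 8 lay between 213 TPM (Cct2) and 498 TPM (Cct3), with Cct5 second at 469 TPM. Prefoldin genes had a median of 136 ± 0.958 TPM over 6 genes, led by Pfdn5 (320 TPM) and Vbp1 (240 TPM), with Pfdn1 the lowest (80.5 TPM).

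The 7 folding cofactor genes had a median of 66.3 ± 5.10 TPM. Tbcb and Tbca, which hold alpha and beta tubulin respectively, were the highest at 246 and 193 TPM. Tbcel, a relative of the cofactor that takes tubulin apart, was the lowest at 4.22 TPM. Ttc5, which recognises new tubulin chains and starts the decay of tubulin RNA when free tubulin is in excess, stood at 78.6 and 75.2 TPM.

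Genes of microtubule nucleation had lower medians than the folding lists, though single genes overlapped. Tubg1, the gamma tubulin that seeds microtubules, stood at 72.2 and 77.5 TPM, and its near copy Tubg2 at 12.4 and 11.1 TPM. The centriolar tubulins Tubd1 and Tube1 stood at 8.86 and 9.88 TPM and at 8.65 and 7.87 TPM. All 8 genes of the gamma-tubulin ring complex reached 1 TPM in both libraries, with a median of 36.7 ± 2.22 TPM, the small subunit Mzt1 (101 TPM) and Tubgcp4 (59.8 TPM) as the highest and Tubgcp6 (14.7 TPM) as the lowest.

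The enzymes that modify tubulin differed widely in level. Atat1, which acetylates alpha tubulin inside the microtubule, stood at 246 and 251 TPM, and the deacetylases Sirt2 and Hdac6 at 72.3 and 71.1 TPM and at 46.8 and 50.3 TPM. For the terminal tyrosine of most alpha tubulins, the enzymes that remove it, Vash1 (35.02 and 32.38 TPM) and Vash2 (67.9 and 68.6 TPM), and their partner Svbp (165 and 153 TPM) were above Ttl (19.7 and 20.4 TPM), which restores it.

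Of 13 genes for the enzymes that add glutamate or glycine chains to the tails, 9 reached 1 TPM in both libraries. Tpgs1 (65.2 TPM) and Ttll1 (64.1 TPM), subunits of the same glutamylating complex, were the highest and Ttll6 (0.01 TPM) the lowest. Of 6 genes for enzymes that remove glutamates, 4 reached 1 TPM, led by Agtpbp1 (30.3 TPM) and Agbl5 (23.2 TPM), with Agbl1 the lowest (0.105 TPM). All 7 genes of the severing enzymes and their partners did, from Katna1 (43.3 TPM), a katanin subunit, and Spast (38.4 TPM), which cuts microtubules in axons, down to Katnal2 (6.72 TPM).

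Together, 61 of the 67 genes in these 11 lists reached 1 TPM in both libraries. None of the 61 was over 2-fold apart between the pools, against 1.43% of all genes of that level, and 6 had intervals apart, against 14.3%. All 6 were higher in replicate 2, and of all genes of that level 10.1% had intervals apart and higher and 4.19% apart and lower. The 6 included the ring complex genes Tubgcp3 (35.6 and 41.8 TPM) and Nedd1 (31.1 and 34.8 TPM), the chaperonin genes Cct2 (206 and 219 TPM) and Cct6a (401 and 425 TPM), and the glutamylase Ttll7 (16.8 and 24.9 TPM), and those of them that the naming rule does not take were chosen after their values were seen. The median log2 ratio of the 61 genes was 0.04, near the 0.03 of all genes.

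**Figure D5:**
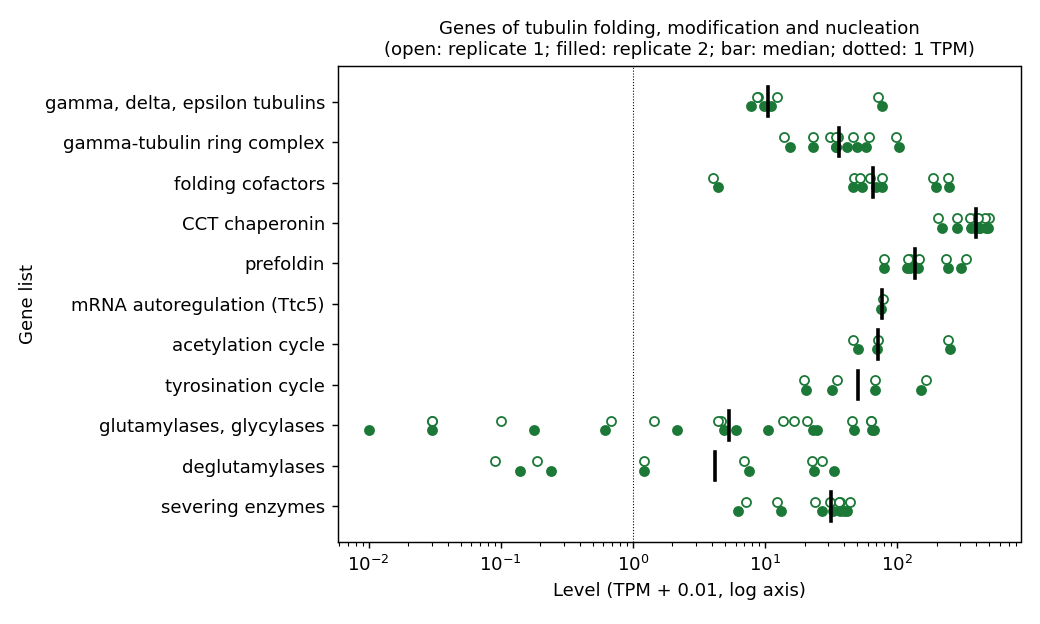
Levels of the genes in 11 lists of tubulin nucleation, folding, modification and severing, in TPM + 0.01 on a log axis, with open circles for replicate 1, filled circles for replicate 2 and a bar at the list's median; the dotted line is at 1 TPM. The chaperonin list is highest at a median of 400 TPM, and the lists of glutamylases and deglutamylases reach under 1 TPM.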

How the data were processed

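Total RNA of 2 neural tube pools, 10 ng per library and over 200 nucleotides in size, was sequenced, per the labels. The authors deposited an expected count per gene and transcript, estimated from aligned reads, per the file headers. TPM, its posterior mean version and FPKM, also deposited, were corrected by the authors for effective length and depth, per the file headers. Percent values, deposited by the authors, give each transcript's share of its gene. Per the deposited read-me, reads were aligned to GENCODE M4 transcripts of assembly mm10; the program and the use of strand are not given in the sources used here. The title marks the series as superseded by a later one, not used here. Effective length was 99 bases below length for all 10 genes.

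Symbols, coordinates (1-based), biotypes and sequences came from GENCODE M21 for GRCm38, the same assembly with later models, matched by identifier without version (42462 genes matched). Main transcripts were the highest with a whole coding sequence in M21; for Tuba4a this was Tuba4a-202. Main transcript lengths differ between M21 and the files for 4 genes, Tuba1a (1803 and 1647 bases), Tubb2b (2182 and 1922), Tubb2a (1610 and 1584) and Tuba1c (1982 and 1977). Of 174 list genes 1 (Drgx) had no row. Ratios are of TPM + 1, a pseudocount of 1, so a fold understates that of low genes. Count ratios and shares have exact (Clopper-Pearson) 95% intervals on rounded expected counts. TMM (edgeR 4.0.16) and DESeq2 1.42.0 size factors served only as alternative scalings. Python 3.11.15, Biopython 1.88 and scipy 1.17.1 were used. The ratio and interval steps were tested on simulated data.

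The genes named are all members, the 6 other alpha and beta tubulins, the 2 highest and the lowest of each list (every gene of lists of up to 4) and processed copies with a mean of at least 1 TPM; marker genes named beside them were chosen after their values were seen. The members and lists were chosen with earlier results of these data known. Some items that the lists and sequence steps cover are not reported here.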

Additional observations from a re-analysis of the deposited data

How the results depend on the processing

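The 5 shares and ratios that carry the report were recomputed with FPKM, posterior mean TPM, counts without length correction and summed transcript values. They were also recomputed with the 6 other alpha and beta tubulin genes and the copies Tubb4b-ps1 and Tubb4b-ps2 included. The processed copies of alpha tubulin, such as Gm14150, were not included. Shares from FPKM and summed transcripts equal those from TPM by construction, and with 2 libraries either one alone lies within 1 SD of the mean, so these show no stability; 7 of the other values moved. Without length correction the Tuba1a share was 89.3%, Tubb5 40.2%, Tubb3 22.6%, Tubb2a with Tubb2b 25.0%, and alpha over beta 2.13. With those other genes and the Tubb4b copies included Tubb5 was 30.7% and alpha over beta 2.64. From either library alone the values ranged from 89.785 to 89.884% (Tuba1a), 31.07 to 31.137% (Tubb5), 24.519 to 25.283% (Tubb3), 29.465 to 31.015% (Tubb2a with Tubb2b) and 2.6757 to 2.6779 (alpha over beta). The median log2 ratio of the 10 genes ran from -0.0472 (TMM) to -0.0033 (posterior mean), and none was over 2-fold, or 1.5-fold, apart in the settings run. The direction of Tubb2a turned under FPKM, CPM, TMM and DESeq2 scaling, and that of Tubb3 under TMM (-0.0023). Without either library no ratio between pools exists. No paired analysis was possible because the design has 1 group. Depth limits Tuba4a, Tuba8, Tuba3a and the processed copies, which rest on few counts.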
